A study of Mus musculus with 16 samples.

Results

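The genes described here are 9 of the genes that define receptor classes of mammary tumours: the oestrogen receptor genes Esr1 and Esr2, the progesterone receptor gene Pgr, the prolactin receptor gene Prlr, the ERBB receptor tyrosine kinase genes Erbb2, Erbb3 and Egfr, and Gata3 and Foxa1, which encode transcription factors of luminal mammary epithelium. They were chosen by name, for their role, from 47311 annotated mouse genes, and 7 of them were among the 16154 genes abundant enough to be tested. Bulk RNA came from 16 tumours of E0771-luciferase, a C57BL/6 mouse mammary carcinoma line with a luciferase reporter. In female C57BL/6J mice on a diet with 60% of energy from fat, given from 8 to 26 weeks of age, 250000 cells in 25% matrigel were placed in mammary gland 4. Antibody injections of 200 ug began 3 days later and were repeated every 3 days until day 21. The anti-PD-1 group (8 mice) received an antibody against the T cell receptor PD-1, and the IgG2a group (8 mice) an isotype control antibody, so that the diet, the cell line and the schedule were common to both groups. Each tumour came from its own animal, and the tables held 59036535 to 82591064 estimated reads per tumour. All tumours derive from a single cell line, and bulk tumour RNA also holds RNA of the host's mammary gland, fat, vessels and immune cells. In such samples fewer cells of a type and less RNA per cell cannot be told apart.

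In the mammary gland, oestrogen and progesterone act on hormone-sensing luminal cells through the nuclear receptors encoded by Esr1 and Pgr. FOXA1 and GATA3 bind DNA together with the oestrogen receptor in those cells. Prolactin acts through its receptor, JAK2 and STAT5 to build the milk-secreting epithelium. ERBB receptors work as pairs: EGFR binds EGF-like ligands, ERBB3 binds neuregulins but has little kinase activity of its own, and ERBB2 has no known ligand and serves as the preferred partner of the others. Pathology uses the oestrogen receptor, progesterone receptor and ERBB2 proteins to divide breast cancers into classes. The values below are transcript levels and were set against no clinical threshold.

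Promoter sequence is shown for 4 genes that were high together in the same IgG2a tumour (Esr1, Pgr, Foxa1 and Gata3) and for Erbb2, which was expressed evenly, so that the letters upstream of each start can be compared. Each stretch runs 5′ to 3′ on the gene's strand from 250 bases before to 30 bases after an annotated start, from RefSeq on GRCm38.p6. The positions are chr10:4611739-4612018 on the + strand for Esr1, chr9:8899583-8899862 on the + strand for Pgr, chr12:57546082-57546361 on the - strand for Foxa1, chr2:9878571-9878850 on the - strand for Gata3 and chr11:98412234-98412513 on the + strand for Erbb2. Capitals mark matches, on either strand, to the oestrogen receptor arm GGTCA, to GATA motifs (AGATAA or AGATAG or TGATAA or TGATAG) or to forkhead motifs (TGTTTAC or TGTTTGC or TATTTAC or TATTTGC).
Esr1: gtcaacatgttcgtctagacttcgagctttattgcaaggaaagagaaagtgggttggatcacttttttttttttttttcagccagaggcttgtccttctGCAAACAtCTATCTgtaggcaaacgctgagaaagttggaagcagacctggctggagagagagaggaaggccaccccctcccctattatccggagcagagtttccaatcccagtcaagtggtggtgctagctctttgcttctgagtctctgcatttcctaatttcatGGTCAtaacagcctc
Pgr: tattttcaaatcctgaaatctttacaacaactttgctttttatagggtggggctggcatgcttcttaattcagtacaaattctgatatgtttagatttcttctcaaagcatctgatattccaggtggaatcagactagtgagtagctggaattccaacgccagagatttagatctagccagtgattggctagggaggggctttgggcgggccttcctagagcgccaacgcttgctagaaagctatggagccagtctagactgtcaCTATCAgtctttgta
Foxa1: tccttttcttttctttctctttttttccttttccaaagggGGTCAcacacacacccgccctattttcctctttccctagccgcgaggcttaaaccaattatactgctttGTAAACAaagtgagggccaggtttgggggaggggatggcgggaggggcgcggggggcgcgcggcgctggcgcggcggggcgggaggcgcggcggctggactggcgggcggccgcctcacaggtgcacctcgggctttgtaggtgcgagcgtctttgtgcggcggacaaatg
Gata3: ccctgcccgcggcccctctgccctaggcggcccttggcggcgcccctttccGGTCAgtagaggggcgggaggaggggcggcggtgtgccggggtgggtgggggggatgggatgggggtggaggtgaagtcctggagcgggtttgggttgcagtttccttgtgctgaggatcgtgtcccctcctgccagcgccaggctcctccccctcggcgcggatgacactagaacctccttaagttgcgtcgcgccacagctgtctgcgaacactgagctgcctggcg
Erbb2: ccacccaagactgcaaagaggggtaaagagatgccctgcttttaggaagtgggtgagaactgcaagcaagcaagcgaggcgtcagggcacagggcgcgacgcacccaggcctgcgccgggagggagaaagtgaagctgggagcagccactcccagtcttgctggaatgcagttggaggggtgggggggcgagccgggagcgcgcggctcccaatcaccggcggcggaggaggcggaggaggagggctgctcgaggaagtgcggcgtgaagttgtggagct
The Esr1 stretch held the arm GGTCA 16 bases after the start, a GATA motif at position -143 and a forkhead motif at position -151. Foxa1 held GGTCA at position -210 and a forkhead motif at -141, Gata3 held GGTCA at -199, and Pgr held a GATA motif 16 bases after the start. Erbb2 had no match to any of these motifs. None of the 5 stretches held the full palindromic oestrogen response element, in which the arm stands on both strands around a spacer of 3 bases. No 2 different motifs overlapped. Of 32851 mouse promoters of the same length, 38.5% held the arm, 28.7% a GATA motif, 12.9% a forkhead motif and 0.0670% the full element. Stretches not printed here gave another picture. Egfr, above 1 TPM in every tumour, held the arm 2 times, as did Esr2, which was barely detected. The stretch of Esr1 that begins at 4709908 and those of Prlr that begin at 10176988 and 10293401 had no match. A further Prlr stretch, from 10223656, held a GATA and a forkhead motif. The matches are letters in a window and were not tested as binding sites.

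Oestrogen receptor transcripts were scarce. Esr1 (ENSMUSG00000019768, chromosome 10, 4611593 to 5005614, + strand, in GRCm38) encodes oestrogen receptor alpha. Its level ran from 0.482 through a median of 0.800 to 7.46 TPM (a length-corrected transcript level that sums to the same total in each tumour) in IgG2a tumours, and from 0.345 through 0.555 to 1.41 TPM in anti-PD-1 tumours. The groups overlapped. IgG2a replicate 7 alone made up the top of the range, with IgG2a replicate 8 next at 1.42 TPM, and 12 of 16 tumours lay under 1 TPM. The median over all tumours, 0.737 TPM, was higher than that of 36.4% of 18418 protein-coding genes. Transcript Esr1-204, with 599 codons, carried 83.8% of the Esr1 TPM and begins at the start shown above. Esr2 (ENSMUSG00000021055, chromosome 12, 76120419 to 76177259, - strand), which encodes oestrogen receptor beta, had 4 reads in IgG2a replicate 3, 2 reads in IgG2a replicate 8 and 0 reads in the other 14 tumours. A count of 0 allows up to 0.0363 to 0.0508 RPM (reads scaled to a common total), depending on the tumour and for counting error only, so that Esr2 was not detectable at this depth in all but those tumours.

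The progesterone receptor gene was near the floor outside a pair of tumours. Pgr (ENSMUSG00000031870, chromosome 9, 8899833 to 8968611, + strand) ranged from 0 through a median of 0.0195 to 1.52 TPM under IgG2a and from 0 through 0.0131 to 0.307 TPM under anti-PD-1. The highest value of each group stood far from the rest: IgG2a replicate 7 had 470 of the 672 Pgr reads of the whole set and anti-PD-1 replicate 5 had 112. Without these, the next highest values were 0.0881 TPM under IgG2a and 0.0287 TPM under anti-PD-1, and 4 tumours had 0 reads.

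Prlr (ENSMUSG00000005268, chromosome 15, 10177238 to 10349180, + strand) was the most uneven of the 9 genes in reads. It ranged from 0 through a median of 0.114 to 25.1 TPM under IgG2a and from 0.0247 through 0.205 to 1.80 TPM under anti-PD-1. IgG2a replicate 7 held 81.6% of all Prlr reads (9304 of 11399), anti-PD-1 replicate 5 held 911 reads, and IgG2a replicates 4 and 5 held 0. The mean over all tumours was 1.82 TPM, and 0.272 ± 0.454 TPM (SD, n = 15) without IgG2a replicate 7. Most of the signal came from Prlr-202, whose 608 codons encode the long receptor form, with 64.6% of the TPM. The shorter Prlr-205, with 310 codons, held 6.58%. Prlr-203, an annotated fragment of 564 bases, was listed above 0 in 1 tumour, IgG2a replicate 7, at 5.64 TPM.

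**Figure D1:**
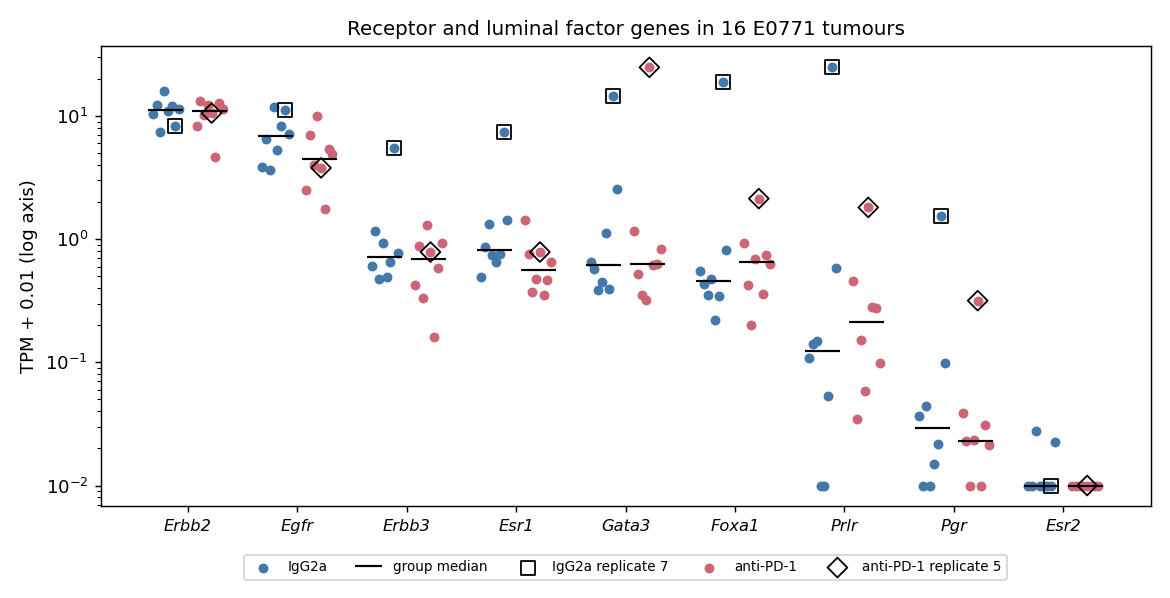
Levels of the 9 genes in each of 16 tumours, as TPM plus 0.01 on a log axis, with 1 point per tumour and a bar at each group median. Erbb2 and Egfr sit above 1 TPM in every tumour, while the square (IgG2a replicate 7) tops the IgG2a points of Erbb3, Esr1, Gata3, Foxa1, Prlr and Pgr.

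Erbb2 was the receptor gene with the highest and most even level. Erbb2 (ENSMUSG00000062312, chromosome 11, 98412470 to 98437716, + strand) ranged from 7.38 through a median of 11.2 to 15.9 TPM under IgG2a and from 4.67 through 10.95 to 13.2 TPM under anti-PD-1. The groups overlapped over most of their range, and the lowest value belonged to anti-PD-1 replicate 6, the tumour with the fewest detected transcripts (38993). Its coefficient of variation in normalised CPM (counts scaled to a common total) was 14.1%, against a median of 30.6% over all genes tested. The Erbb2 median was higher than that of 60.2% of protein-coding genes. Only part of that level was assigned to the receptor-coding transcript. Erbb2-201, with 1256 codons, carried 59.0% of the TPM (4.67 to 8.53 TPM across tumours). Erbb2-202, a noncoding transcript of 4431 bases, carried 34.6% (0 to 6.98 TPM). These transcripts have 27 and 26 exons over nearly the same span, so the division of reads between them is an estimate whose error was not measured here. Counted over protein-coding transcripts alone the mean Erbb2 level was 6.35 TPM in place of 10.8 TPM.

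Genes next to Erbb2 on its chromosome, which are gained with it in human ERBB2-amplified cancers, gave a mixed picture. Stard3, a sterol transfer protein gene, ran from 10.4 to 45.5 TPM and Mien1 from 38.4 to 69.1 TPM. The ERBB adaptor gene Grb7 had a median of 0.106 TPM and reached 4.93 TPM in IgG2a replicate 7. Of 11 neighbours 6 had a median under 1 TPM, and the muscle gene Tcap, with a median of 0.0861 TPM, reached 697 TPM in IgG2a replicate 3, whose summed skeletal muscle markers stood at 33328 TPM against 5.59 to 233 TPM in the other tumours.

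Egfr was the second most abundant. Egfr (ENSMUSG00000020122, chromosome 11, 16752203 to 16918158, + strand) ranged from 3.65 through a median of 6.85 to 11.8 TPM under IgG2a and from 1.76 through 4.45 to 10.01 TPM under anti-PD-1. The groups overlapped, and 2 of 8 anti-PD-1 tumours lay above the IgG2a median. The full-length transcript Egfr-201, with 1210 codons, carried 68.7% of the TPM, and Egfr-202, which encodes a truncated form of 655 codons without the kinase domain, 18.8%. Egfr-202 was above 0 in 16 of 16 tumours, from 0.298 to 3.29 TPM. Erbb2 exceeded Egfr in 15 of 16 tumours, with a median ratio of 2.07 and a highest ratio of 3.36 (anti-PD-1 replicate 1). IgG2a replicate 7 was the exception, at a ratio of 0.747.

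Erbb3 (ENSMUSG00000018166, chromosome 10, 128567523 to 128589652, - strand) was lower than both. It ranged from 0.462 through a median of 0.707 to 5.45 TPM under IgG2a and from 0.152 through 0.676 to 1.28 TPM under anti-PD-1. IgG2a replicate 7 stood above the other 15 tumours, which spanned 0.152 to 1.28 TPM. Its coefficient of variation in normalised CPM was 127%, and 39.7% without that tumour. The remaining family member, Erbb4, did not exceed 0.0646 TPM in any tumour. Erbb3 is also expressed by Schwann cells, the glia of peripheral nerves. The 10 Schwann cell markers, Erbb3 among them, summed to 189 TPM in IgG2a replicate 7 against a median of 12.6 TPM in the other 15 tumours, with Pmp22, a myelin protein gene, at 157 TPM. The part of these cells in the Erbb3 level was not tested.

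The luminal transcription factor genes were low in most tumours and high in a few. Gata3 (ENSMUSG00000015619, chromosome 2, 9857078 to 9890034, - strand) ranged from 0.374 through a median of 0.602 to 14.6 TPM under IgG2a and from 0.311 through 0.614 to 24.8 TPM under anti-PD-1. The 2 highest tumours were anti-PD-1 replicate 5 and IgG2a replicate 7. In anti-PD-1 replicate 5, however, 22.2 TPM belonged to Gata3-205, a noncoding transcript of 243 bases listed above 0 in 2 tumours, and the coding Gata3-201 stood at 2.69 TPM. In reads IgG2a replicate 7 was the higher, with 2215 against 497, and its Gata3-201 level was 13.1 TPM. Gata3 is also a T cell factor, and summed T cell markers were highest in anti-PD-1 replicate 5 (97.1 TPM) but 23.5 TPM in IgG2a replicate 7, close to the lowest tumour at 22.9 TPM. The part of T cells in the Gata3 level was not tested. Foxa1 (ENSMUSG00000035451, chromosome 12, 57540628 to 57546916, - strand) ranged from 0.212 through a median of 0.444 to 18.7 TPM under IgG2a and from 0.190 through 0.648 to 2.13 TPM under anti-PD-1. The highest tumour of each group was the same as for Pgr and Prlr, and 14 of 16 tumours lay under 1 TPM.

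By mean TPM the order was Erbb2 (10.8), Egfr (6.07), Gata3 (3.12), Prlr (1.82), Foxa1 (1.74), Esr1 (1.18), Erbb3 (0.988), Pgr (0.130) and Esr2 (0.00189). Single tumours set part of this order. Without anti-PD-1 replicate 5 the Gata3 mean was 1.67 TPM, and over protein-coding transcripts it was 1.49 TPM, below Prlr (1.66) and Foxa1 (1.74). Without IgG2a replicate 7 the means were 0.759 TPM for Esr1, 0.691 TPM for Erbb3 and 0.0374 TPM for Pgr. By median TPM the order was Erbb2 (11.2), Egfr (5.34), Esr1 (0.737), Erbb3 (0.707), Gata3 (0.614), Foxa1 (0.504), Prlr (0.135), Pgr (0.0131) and Esr2 (0). Neighbours in the order by mean were compared within tumours on the log2(TPM + 0.1) scale by a two-sided exact sign-flip permutation test, adjusted over 8 pairs. Erbb2 lay above Egfr by 0.94 ± 0.54 log2 units (SD, n = 16, exact permutation adjusted p = 2.4e-04). With protein-coding transcripts alone that difference was 0.36, and Erbb2 was the higher in 13 of 16 tumours (exact permutation adjusted p = 0.0476). Prlr had a higher mean than Foxa1 and yet was lower than Foxa1 in 15 of 16 tumours (exact permutation adjusted p = 3.1e-04). Its mean without IgG2a replicate 7, given above, was below that of Foxa1 (0.272 against 0.611 TPM). Foxa1 against Esr1 (exact permutation adjusted p = 0.276) and Esr1 against Erbb3 (exact permutation adjusted p = 0.418) did not differ beyond their spread. The Esr1 level exceeded that of Erbb3 by 0.15 log2 units on average, and the sign turned to -0.014 without the 3 tumours that stand apart and to -0.0045 with protein-coding transcripts alone.

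Those 3 tumours are IgG2a replicate 7, IgG2a replicate 3 and anti-PD-1 replicate 6. Replicate 3 of IgG2a carried the muscle transcripts given above, and anti-PD-1 replicate 6 had the lowest Erbb2, Egfr, Erbb3 and Esr1 levels. In IgG2a replicate 7 the 25 luminal epithelial markers summed to 507 TPM against a median of 90.3 TPM in the other 15 tumours, and 20 of the 25 were at their highest there. Epcam, an epithelial adhesion gene, stood at 29.5 TPM there against 0.178 to 6.31 TPM elsewhere, and Krt18, a luminal keratin gene, at 98.6 TPM against 0.0292 to 20.3 TPM. The same tumour had 14252 TPM of adipocyte markers against a median of 105 TPM, 844 TPM of endothelial markers against 93.1 TPM, 5056 TPM of fibroblast markers against 1014 TPM, and 4855 TPM of macrophage markers against 1504 TPM. Anti-PD-1 replicate 5 had the second highest luminal sum, 197 TPM, with fibroblast markers of 2541 TPM and macrophage markers of 2341 TPM. Over all 16 tumours the mesenchymal filament gene Vim was among the most abundant transcripts (3435 to 9198 TPM), while Krt8, the usual partner of Krt18, ran from 33.4 to 56.0 TPM in the other 15 and stood at 75.9 TPM in IgG2a replicate 7. The luminal, adipocyte, endothelial, fibroblast and macrophage sums were thus high in the tumour that was also high for Prlr, Foxa1, Pgr, Gata3, Esr1 and Erbb3, and their part in those levels was not tested.

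**Figure D2:**
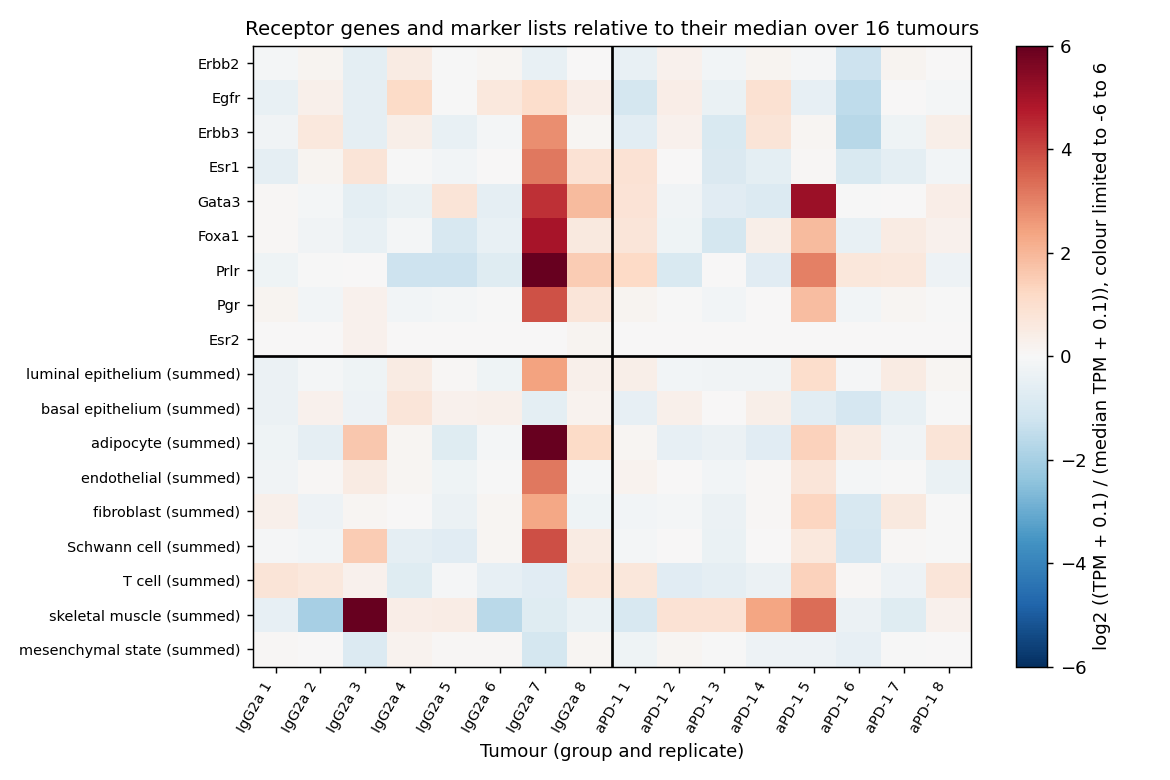
Each gene and each summed marker list relative to its median over 16 tumours, in log2 units with a pseudocount of 0.1 TPM, with tumours in columns. The column of IgG2a replicate 7 is darkest red for Prlr and for summed adipocyte markers, which reach the colour limit. It is red to a lesser degree for Foxa1, Gata3, Pgr, Esr1 and Erbb3 and for summed endothelial, Schwann cell, luminal and fibroblast markers. The column of anti-PD-1 replicate 5 is red for Gata3, Prlr, Foxa1 and Pgr.

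The comparison of anti-PD-1 with IgG2a asks whether checkpoint blockade was accompanied by a different receptor profile. None of the 7 genes tested passed edgeR's quasi-likelihood test with Benjamini-Hochberg adjustment over all genes, where 0% of 16154 genes passed and 11.4% had an unadjusted p under 0.05. All 7 estimates were lower under anti-PD-1, against 56.9% of all genes tested. Esr1 had a log2 fold change of -1.49 ± 0.53 (SE) with an unadjusted p of 0.0127 and an adjusted p of 0.434 by edgeR, the only one of the 7 with an unadjusted p under 0.05. Erbb2 had one of -0.07 ± 0.11 (SE) with a 95% interval from -0.30 to 0.16, and Egfr one of -0.41 ± 0.21 (SE) with an interval from -0.85 to 0.04. Estimates with wide errors were those of Prlr at -2.83 ± 1.53, Foxa1 at -1.83 ± 0.94, Gata3 at -1.16 ± 0.84 and Erbb3 at -0.97 ± 0.53 (log2 fold change and SE). In TPM, no gene of the 9 had groups that did not overlap. Measured in normalised CPM in place of TPM, 0.00619% of the genes tested had groups that did not overlap.

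Most of these estimates rested on IgG2a replicate 7. Without it, 4 of 7 were lower and the median log2 fold change of the 7 went from -1.16 to -0.05, while that of all genes tested went from -0.05 to -0.003. Esr1 was then at -0.49, Egfr at -0.26, Erbb2 at -0.11 and Erbb3 at -0.05, and the sign turned for Prlr (1.35), Gata3 (0.96) and Foxa1 (0.86). Leaving out anti-PD-1 replicate 5 as well, an alternative added after the data were seen, gave 0.23 for Prlr, 0.50 for Gata3, 0.46 for Foxa1 and -0.55 for Esr1. The Erbb2 estimate stayed between -0.11 and -0.02 whichever tumour was left out, but was 0.15 ± 0.12 (SE) when counted over protein-coding transcripts alone. Pgr and Esr2 were too low for this test. The mean log2(TPM + 0.1) of Pgr was -2.92 under anti-PD-1 and -2.58 under IgG2a (two-sided exact permutation p = 0.599). For Pgr, 12870 assignments of the tumours allow a smallest p of 1.6e-04. For Esr2 the means were -3.32 and -3.27 (exact permutation p = 0.467). As 14 tumours had 0 Esr2 reads and those above 0 were all IgG2a, this is the smallest p possible for Esr2. The Esr2 test could therefore not show a difference. The sign of the Pgr difference also turned without IgG2a replicate 7, to 0.12.

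**Figure D3:**
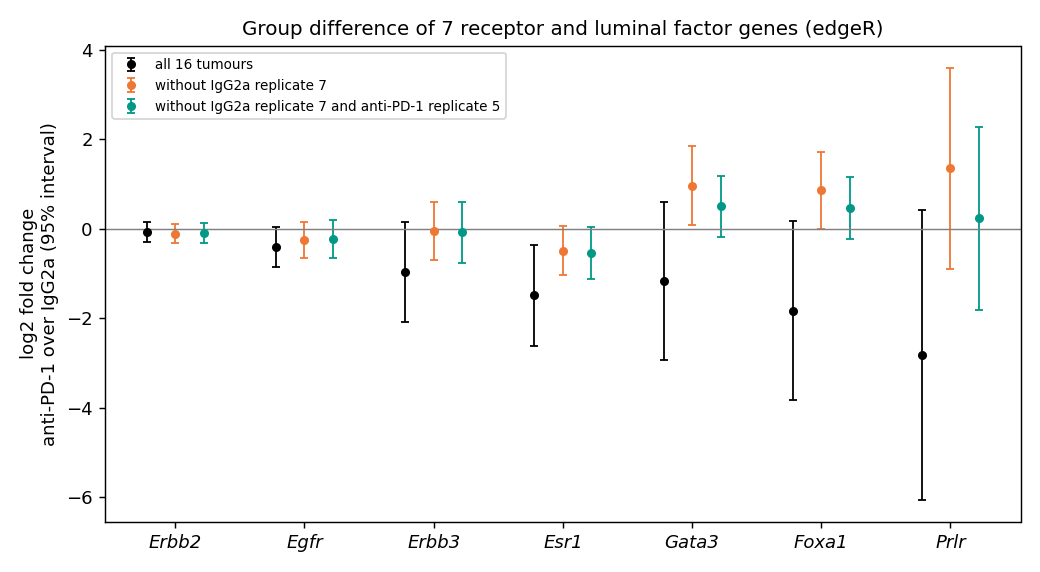
Log2 fold change of anti-PD-1 over IgG2a for 7 genes from edgeR, as points with 95% intervals, with all 16 tumours (black), without IgG2a replicate 7 (orange) and without that tumour and anti-PD-1 replicate 5 (green). Erbb2 and Egfr hold their place across the 3 sets, whereas the points of Prlr, Gata3 and Foxa1 move from below 0 to above it.

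Across tumours the genes fell into the pattern those tumours set. Pearson correlations of log2(TPM + 0.1) were computed for 28 pairs of 8 genes, Esr2 being detected in too few tumours, with 100000 permutations each. After adjustment over the pairs 14 passed by Pearson's r and 2 by Spearman's rho. Foxa1 and Pgr correlated at r = 0.95 (permutation adjusted p = 7.0e-04) and rho = 0.70 (permutation adjusted p = 0.0466), but r was 0.57 without the 2 tumours farthest from the median, IgG2a replicate 7 and anti-PD-1 replicate 5. Prlr and Pgr had r = 0.95 (permutation adjusted p = 7.0e-04) and rho = 0.59 (permutation adjusted p = 0.0654), with r = 0.61 without that pair of tumours. Prlr and Foxa1 had r = 0.93 (permutation adjusted p = 9.3e-04) and rho = 0.61 (permutation adjusted p = 0.0654), with r = 0.52 without them. These values of r thus rest in large part on the same pair of tumours. Without the 3 tumours that stand apart, rho was 0.81 for Foxa1 and Pgr, 0.64 for Prlr and Pgr and 0.68 for Prlr and Foxa1. Those 3 include IgG2a replicate 7 but not anti-PD-1 replicate 5. Egfr and Erbb3 correlated at r = 0.76 (permutation adjusted p = 0.00294) and rho = 0.76 (permutation adjusted p = 0.0249), and r was 0.72 without the 2 tumours farthest from the median in Egfr, IgG2a replicate 4 and anti-PD-1 replicate 6. It was 0.66 without the 3 tumours that stand apart, which include IgG2a replicate 7, where Erbb3 was highest. Erbb2 and Egfr had r = 0.72 (permutation adjusted p = 0.00625) and rho = 0.65 (permutation adjusted p = 0.0544), with r = 0.50 without IgG2a replicate 3 and anti-PD-1 replicate 6 and r = 0.89 without the 3 tumours that stand apart, which include both. Levels in TPM share each tumour's scaling, which also enters these values.

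Over the same 16 tumours, the genes most like each receptor were taken from 13417 protein-coding genes by Spearman's rho, as a description. Nearest to Erbb2 were the formin gene Fmnl3 (rho = 0.96), Fam57a (0.96) and Lamc1 (0.96), a laminin chain. Nearest to Egfr were Dock1 (0.95), Natd1 (0.95) and the lysosomal galactosidase gene Glb1 (0.94). Prlr was nearest to Mgst1 (0.93), the lipid droplet gene Cidec (0.91) and Krt18 (0.90), of which Cidec is on the adipocyte and Krt18 on the luminal marker list. Erbb3 was nearest to Zdhhc15 (0.93) and Ywhab (0.91), and Foxa1 to Vav3 (0.91), Stx3 (0.91) and Cdc42 (0.90). Esr1 was nearest to Mfsd6 (0.90), Eepd1 (0.88) and Enpep (0.87), and Gata3 to Tmem86b (0.89), Egr2 (0.88) and Kctd12 (0.88).

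Ligands of the ERBB receptors were more abundant than some of the receptors. Areg, which encodes amphiregulin, an EGFR ligand, ranged from 4.74 through a median of 23.6 to 53.5 TPM under IgG2a and from 21.4 through 30.6 to 51.6 TPM under anti-PD-1. The EGFR ligand genes Ereg (2.49 to 34.1 TPM over 16 tumours) and Hbegf (5.67 to 26.4 TPM) followed. All of these were lowest in IgG2a replicate 7, the tumour in which the summed luminal markers and 5 of the 9 receptor and factor genes were highest. Btc, for betacellulin, ran from 0.997 to 4.98 TPM, and Egf, Tgfa and Epgn had medians of 0.249, 0.0624 and 0.0873 TPM. Among neuregulin genes, whose products bind ERBB3 and ERBB4, Nrg1 had a median of 0.761 TPM with a highest value of 3.82 TPM in anti-PD-1 replicate 1, Nrg2 one of 1.28 TPM and Nrg4 one of 0.492 TPM with 10.9 TPM in IgG2a replicate 7. Nrg3 had a median of 0 TPM.

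**Figure D4:**
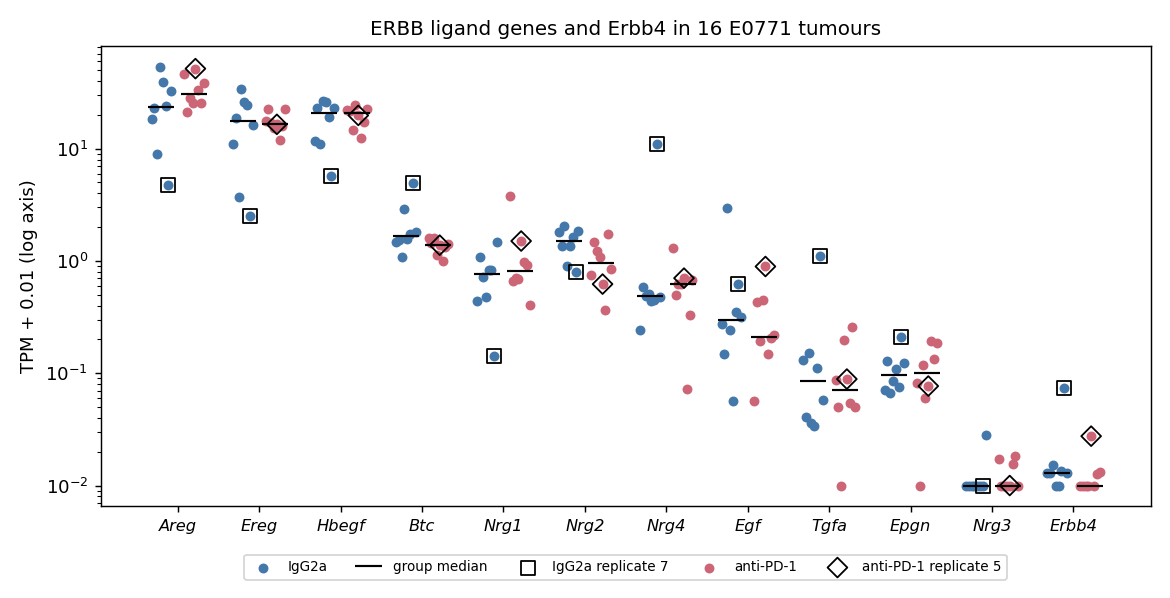
Levels of the ERBB ligand genes and Erbb4 in 16 tumours, as TPM plus 0.01 on a log axis, with 1 point per tumour and a bar at each group median. Areg, Ereg and Hbegf lie between 2.49 and 53.5 TPM with IgG2a replicate 7 (square) lowest, and Erbb4 lies at or under 0.0646 TPM.

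Of the 9 ligand genes tested, 0 passed, 4 were higher and 5 lower by their estimates, and their median was -0.46 in log2 units, against -0.05 for all genes tested. Without IgG2a replicate 7 the median was 0.07. Nrg1 had a higher estimate of 0.97 ± 0.39 (SE, unadjusted p = 0.0235, adjusted p = 0.434 by edgeR), 0.69 without anti-PD-1 replicate 1. Egf had -1.89 ± 0.80 (SE, unadjusted p = 0.0317), and -0.04 without IgG2a replicate 3, where it was highest at 2.95 TPM. Areg had 0.59 ± 0.37, Hbegf 0.21 ± 0.23 and Ereg 0.18 ± 0.37 (log2 fold change and SE).

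Downstream of the receptors, the 24 genes of ERBB signalling and feedback were mostly well expressed. The adaptor genes Grb2 (34.0 to 187 TPM) and Shc1 (14.3 to 110 TPM), the ERK phosphatase gene Dusp6 (44.3 to 145 TPM) and Adam17 (20.6 to 105 TPM), whose protease releases EGFR ligands, had the highest means. Of 22 tested, 0 passed, and 2 were higher and 20 lower by their estimates, where 56.9% of all genes tested were lower. The list's median was -0.18 in log2 units, or -0.15 without IgG2a replicate 7. Those with the smallest p were Pik3r1, a regulatory subunit of PI 3-kinase, at -0.60 ± 0.27 (-0.22 without IgG2a replicate 7) and the phosphatase gene Ptpn11 at -0.25 ± 0.11 (log2 fold change and SE).

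For the oestrogen receptor, coregulator genes were expressed at higher levels than Esr1. The corepressor gene Ncor1 (21.4 to 144 TPM), the arginine methyltransferase gene Carm1 (12.3 to 94.3 TPM) and Tle3 (19.1 to 55.3 TPM) were among the highest of the list. Of 12 tested, 0 passed and 11 had estimates below 0, against 56.9% of all genes tested. The list's median was -0.31 in log2 units, against -0.05 for all genes tested. Without IgG2a replicate 7 all 12 were lower, with a median of -0.28 against -0.003 for all genes tested. The coactivator genes Ncoa2 at -0.47 ± 0.17 and Ncoa1 at -0.81 ± 0.32 (log2 fold change and SE) had the smallest p, and Ncoa1 was at -0.31 without IgG2a replicate 7. The TPM sum of the 12 was lowest, at 123 TPM, in anti-PD-1 replicate 6. In the other anti-PD-1 tumours it was 314 to 487 TPM, within the 244 to 610 TPM of IgG2a tumours.

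Among genes known to respond to oestrogen or progesterone in mammary cells, levels were divided. Igfbp4 (355 to 956 TPM), the cyclin gene Ccnd1 (57.2 to 248 TPM) and Xbp1 (57.3 to 145 TPM), a factor of the unfolded protein response, were abundant, and many other signals also act on them. Agr2 was at 0 TPM in all tumours, and Greb1 did not exceed 1.43 TPM, both being named after their values were seen. Of 14 list members in the files 10 were tested and 0 passed, with 3 higher and 7 lower, and the list's median was -0.11 in log2 units, or 0.17 without IgG2a replicate 7. Tnfsf11, which encodes RANKL, a paracrine signal downstream of progesterone that activated T cells also make, had 1.36 ± 0.49 (SE, unadjusted p = 0.0136, adjusted p = 0.434 by edgeR) and was highest in anti-PD-1 replicate 5. It stood at 1.09 without that tumour. Stc2 had -2.28 ± 1.198, and 1.30 without IgG2a replicate 7.

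In the prolactin pathway the transducers were present and several milk genes were at 0. Jak2 ran from 3.96 to 19.0 TPM and Stat5b from 9.44 to 28.2 TPM, and Socs1, a feedback inhibitor also induced by interferon, from 12.3 to 67.9 TPM. The hormone gene Prl and the milk protein genes Csn1s1, Csn1s2a and Wap, named after their values were seen, were at 0 TPM in 16 of 16 tumours. Csn3, the kappa-casein gene, also named after its values were seen, had a median of 0.486 TPM and reached 15.4 TPM in IgG2a replicate 7 and 5.55 TPM in anti-PD-1 replicate 5. Elf5, a factor of secretory epithelium, had a median of 0.0429 TPM and reached 3.03 TPM in IgG2a replicate 7. Of 8 tested genes 0 passed, with 1 higher and 7 lower and a list median of -0.25 in log2 units. Without IgG2a replicate 7 the split was 4 and 4 and the median 0.09. Stat5b had -0.26 ± 0.08 (SE, unadjusted p = 0.00658, adjusted p = 0.434 by edgeR), with leave-one-out values between -0.28 and -0.21. The growth hormone receptor gene Ghr, strongly expressed in fat, had -4.13 ± 1.27 (SE) and -1.01 without IgG2a replicate 7, where it stood at 259 TPM.

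Of the other steroid receptors, the glucocorticoid receptor gene Nr3c1 was expressed at levels above those of Esr1 in both groups, from 16.8 through 27.5 to 36.2 TPM under IgG2a and from 7.13 through 20.7 to 29.3 TPM under anti-PD-1. Its log2 fold change was -0.32 ± 0.15 (SE), with an unadjusted p of 0.0428 and an adjusted p of 0.434 by edgeR. Gper1, a membrane receptor for oestrogen, had a median of 0.118 TPM. Esrra, an orphan receptor of energy metabolism, ran from 16.6 to 29.7 TPM. All 7 tested members of that list had lower estimates, against 56.9% of all genes tested, and 0 passed. Without IgG2a replicate 7, 4 were lower.

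The median estimate of the luminal epithelial markers changed sign without IgG2a replicate 7, as did those of Prlr, Gata3 and Foxa1. The estimates of Esr1, Erbb2 and Egfr stayed below 0 without it, and that of Erbb3 went to -0.05 ± 0.30 (SE). Without the 3 tumours that stand apart Erbb3 was at 0.016. Of 25 markers 16 had a median under 1 TPM, 19 were tested and 0 passed. With all tumours 15 estimates lay below 0 and 4 above it, around a median of -0.96 in log2 units, and without IgG2a replicate 7 the split was 4 lower and 15 higher with a median of 1.25, against -0.003 for all genes tested. Krt18 went from -1.14 to 1.80 and Epcam from -0.96 to 1.46. Krt8, with 33.4 TPM or more in every tumour, went from -0.13 to 0.02. Basal markers were divided. The integrin gene Itga6 ran from 60.2 to 317 TPM and Procr from 25.9 to 70.0 TPM, and neither is limited to basal cells. The basal keratin genes Krt5 and Krt14 had medians of 0.165 and 0.597 TPM and were highest in anti-PD-1 replicate 6, at 9.14 and 18.7 TPM, and Trp63, the basal transcription factor gene, had a median of 0.0113 TPM. The 13 basal markers summed to 157 TPM in IgG2a replicate 7 against a median of 239 TPM in the other 15 tumours. Itga6 was the largest part of that sum and stood at 78.6 TPM in IgG2a replicate 7. Yet 5 of the 13 were at their highest in that tumour, Krt17 among them at 6.95 TPM, and Krt5 and Krt14 stood there at 8.69 and 12.5 TPM. The sum therefore does not describe the basal keratin genes.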

How the data were processed

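Per the labels' protocols, RNA with an integrity number above 5.0 was enriched with oligo-dT beads and made into non-directional libraries, which do not separate a gene's reads from those of an antisense neighbour. The deposited tables hold estimated counts per transcript, of which 25.4 to 38.6% were not whole, and TPM, per the file headers, which sums to a fixed total in each tumour. GRCm38, edgeR and limma appear in the submitters' processing notes. Which quantifier and annotation the authors used is not given in the sources used here.

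Transcripts were matched by identifier to GENCODE vM21, which placed 114200 of 115088 in 47311 genes. Unmatched transcripts held 0.167 to 0.217% of a tumour's reads and did not enter. Gene sums of the estimated counts, rounded to whole numbers, were filtered (filterByExpr, minimum count 10, minimum total 15), scaled by TMM and tested by edgeR 4.0.16, run under R 4.3.3 (robust quasi-likelihood, Benjamini-Hochberg adjustment over 16154 genes, threshold 0.05). Depth limits precision for Esr2 and Pgr, at 6 and 672 reads over all tumours, and intervals and limits for a count of 0 cover counting error only. TPM was summed per gene, with a pseudocount of 0.1 on the log2 scale. RefSeq promoters of GRCm38.p6 were found by symbol for 8 of 9 genes and cut to 280 bases. The model fit was also run on simulated counts with the same dispersion for every gene and no outlying tumours. That run does not cover genes whose level is set by single tumours.

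The 9 genes and the gene lists were chosen with earlier results of these data known. From each list the 4 genes of highest mean TPM and the 2 of smallest unadjusted p could be named, together with all ERBB ligands and a set of receptors and keratins. Nearest genes were the 3 of highest rho among protein-coding genes tested, leaving out Gm and Rik names. A few list members and nearest genes are not reported here. The alternatives tried were DESeq2 1.42.0, voom from limma 3.58.1 with and without quality weights, other scaling factors and filters, TPM with pseudocounts of 0.1 and 1, protein-coding transcripts alone, animal number range as a covariate, and leaving out tumours. The 3 tumours that stand apart are anti-PD-1 replicate 6 and IgG2a replicates 3 and 7. Mitochondrially encoded genes were not analysed here.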

Additional observations from a re-analysis of the deposited data

Results flagged for a closer look

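In 11 of 18 gene and group combinations (9 genes in groups of 8 tumours), the highest tumour lay far from the other 7 by Dixon's criterion. Chance flags about 1 in 20 groups of normally distributed values, a rate not measured here for TPM, and the 11 are not independent, since 6 of them are a single tumour. In IgG2a replicate 7 these were Prlr at 25.1 TPM, Foxa1 at 18.7 TPM, Gata3 at 14.6 TPM, Esr1 at 7.46 TPM, Erbb3 at 5.45 TPM and Pgr at 1.52 TPM. In anti-PD-1 replicate 5 they were Gata3 at 24.8 TPM, mostly from the short noncoding Gata3-205, Foxa1 at 2.13 TPM, Prlr at 1.80 TPM and Pgr at 0.307 TPM. In anti-PD-1 replicate 1 it was Esr1 at 1.41 TPM. Summed luminal markers were highest in IgG2a replicate 7 (507 TPM) and next highest in anti-PD-1 replicate 5 (197 TPM), and their part in these values was not tested.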

How the results depend on the processing

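Of 491 alternative values, 466 kept their direction and side of the threshold or moved by less than the spread, and none of the 9 genes passed under any of them. For mean levels the spread was the SD over tumours, which exceeded the mean for every gene of the 9 but Erbb2 and Egfr. A fall in mean level could thus not count as moved for the others. Prlr counted as kept although its mean fell from 1.82 to 0.272 TPM without IgG2a replicate 7. EdgeR and limma called 0 genes in every setting, with 1836 at an unadjusted p under 0.05 in the reported fit. DESeq2 called 4 of 27810 genes, none of the 9. DESeq2 replaces counts it takes for outliers. In IgG2a replicate 7 this lowered Prlr from 9304 to 76, Gata3 from 2215 to 98 and Foxa1 from 3105 to 88. DESeq2 also lowered Prlr in anti-PD-1 replicate 5, from 911 to 84, but not Gata3 or Foxa1 there. Its log2 fold changes were 0.21 for Prlr, 0.93 for Gata3 and 0.81 for Foxa1. For Esr1, whose count in IgG2a replicate 7 was lowered from 2394 to 214, DESeq2 gave -0.45, against -1.49 in the reported fit. Limma-voom gave 1.14 for Prlr and 0.088 for Gata3, and with quality weights 1.99 for Prlr, 0.48 for Gata3 and 0.62 for Foxa1. Esr1 was at -0.83 by limma-voom and at -0.42 with quality weights. The cause was not tested. Leaving out tumours in turn gave -3.95 to 1.35 for Prlr, -1.62 to 0.96 for Gata3 and -2.23 to 0.86 for Foxa1, the lower ends without anti-PD-1 replicate 5 and the upper ends without IgG2a replicate 7. It gave -1.63 to -0.49 for Esr1, -1.15 to -0.05 for Erbb3, -0.52 to -0.26 for Egfr and -0.11 to -0.02 for Erbb2. The Pgr difference ran from -0.58 to 0.12. Without the 3 tumours that stand apart the values were 1.53 for Prlr, 0.016 for Erbb3, 0.92 for Gata3, 0.89 for Foxa1 and 0.21 for Pgr. Esr1 was then at -0.24 ± 0.23 (SE), and Esr1 against Erbb3 in level was -0.014. Without IgG2a replicate 7 and anti-PD-1 replicate 5 they were 0.23 for Prlr, 0.50 for Gata3 and 0.46 for Foxa1. Protein-coding transcripts alone gave 0.15 for the Erbb2 fold change, 6.35 TPM for its mean level and -0.0045 for Esr1 against Erbb3. That setting leaves out reads assigned to Erbb2-202 and other noncoding transcripts, and the assignment is an estimate. No paired analysis was possible because the labels give no replicate numbers and each tumour has its own animal number.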
